A study of Equus caballus with 31 samples.

Results

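The 11 synovial fluid libraries of healthy horses were ordered by how much stromal RNA they held, among 31 libraries in the study. The members of each group were chosen by a stroma score, the mean log2(value + 1) of FN1 (fibronectin), SPARC (osteonectin, a collagen-binding glycoprotein) and COL6A3 (a chain of microfibrillar collagen VI), where the value is the normalized read count of the gene. The 5 fluids of highest score are called stroma-rich here (in order of score the horses ORC_188, ORC_205, ORC_197, ORC_201 and ORC_198) and the 5 of lowest score stroma-poor (ORC_209, ORC_192, ORC_200, ORC_208 and ORC_196). ORC_202 lay between them and is in neither group. Per-horse values follow this order unless a horse is named.

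Cells spun from joint fluid after hyaluronidase digestion, and blood mononuclear cells (PBMC), had been taken from horses with osteoarthritis (OA) or without it, and their mRNA was sequenced. Healthy horses and those with OA were told apart by lameness examination, radiographs and, in OA, the response to analgesia of the joint. All were labelled wild type (WT) and as mixed mononuclear cells, none had had medication or a joint injection in the preceding months, and the labels give no age, sex, breed, joint or batch. Every library of a group came from a different horse. The PBMC of 7 of the horses in the rich and poor groups were compared as well, and blood values did not enter the score. The 5 OA fluids did not enter the ordering of the healthy fluids, but were themselves ordered by the same score for a further comparison.

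The synovial membrane is made of a lining of fibroblasts and macrophages over a sublining of fibroblasts, vessels and connective tissue. Its fibroblasts secrete collagens, fibronectin, proteoglycans and hyaluronan, and lining macrophages carry scavenger receptors and complement proteins. Cells of normal joint fluid are few and are mainly lymphocytes, monocytes and macrophages, with some cells shed from the lining.

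The score ranged from 13.94 in ORC_188 to 7.65 in ORC_196, with a mean of 12.26 ± 1.19 (SD, n = 5) in the rich and 9.11 ± 0.95 (SD, n = 5) in the poor fluids. These values chose the groups and are given as a description. FN1 and SPARC were also present in the blood of these horses, so the score does not measure stromal cells alone. The rich library nearest the boundary was ORC_198 at 11.29, the poor library nearest it was ORC_209 at 10.25, and ORC_202 scored 10.99. FN1 stood at 72148, 31642, 11541, 9816 and 7734 in the rich fluids and at 8756, 2286, 3813, 1131 and 1019 in the poor ones. ORC_209, a poor fluid, therefore held more FN1 than ORC_198, a rich one. SPARC and COL6A3 did not overlap. SPARC ran from 2093 to 8802 in the rich and from 196.6 to 2057 in the poor fluids, and COL6A3 from 840 to 6128 against 39.5 to 191. ORC_188 and ORC_205 stood apart from the other 3 rich fluids in all 3 score genes, as the plot of the score by library shows. A score made from COL1A1, COL3A1 and DCN, the main fibrillar collagens and the proteoglycan decorin, put the same 5 horses in each group and the same horse between them.

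**Figure D1:**
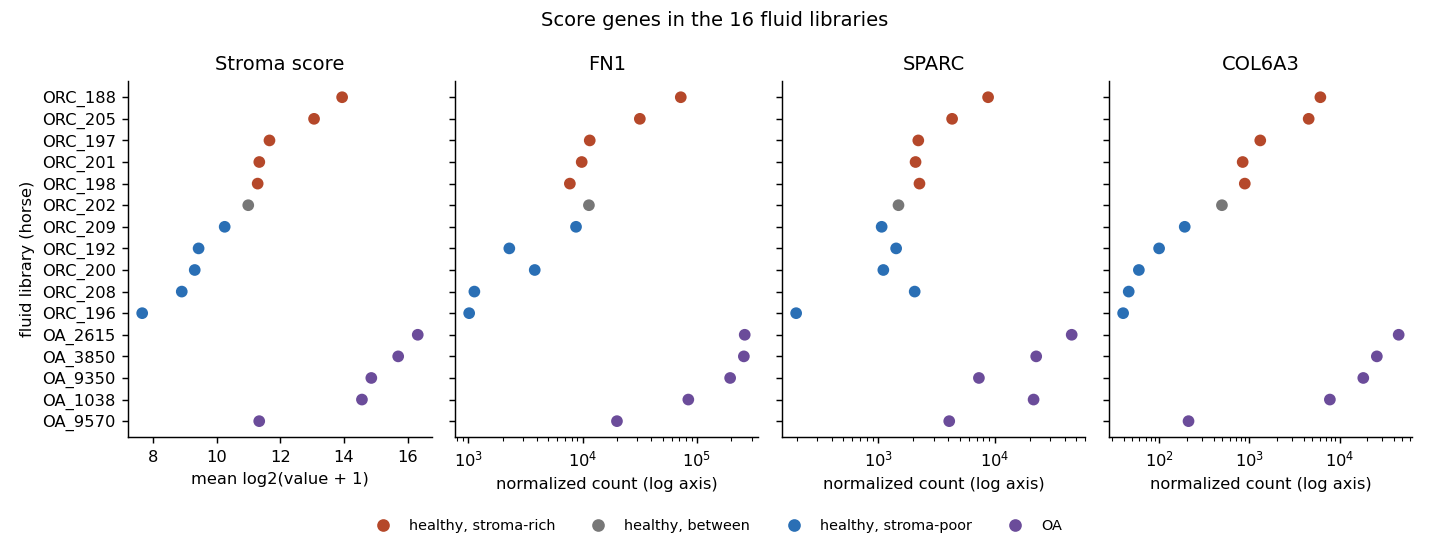
The stroma score (mean log2(value + 1)) and the normalized counts of its 3 genes (log axes) in each of the 16 fluid libraries, 1 point per library. The healthy fluids run from 7.65 to 13.94, and 4 of the 5 OA fluids lie above them, from 14.56 to 16.32.

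The difference in depth between the groups did not pass a test. The rich fluids held 29.8 ± 3.49 M reads (SD, n = 5) and the poor ones 33.1 ± 2.43 M (SD, n = 5), a difference of -3.29 M (two-sided exact permutation test over 252 splits, p = 0.127, where the smallest possible p is 0.00794).

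Of 13567 genes averaging 10 or more over the 11 fluids, 247 (1.82%) were counted as higher in the stroma-rich fluids and 48 (0.354%) as lower. A gene was counted where no rich library overlapped a poor one and the means of log2(value + 1) differed by at least 1, which is 2-fold. No p-value is given for these genes, because the libraries were ordered by values of the same RNA. Among the genes higher in the rich fluids 199 differed at least 4-fold, against 15 of the genes lower there. In 68 of the 247 the poor fluids averaged below 10, so these genes passed the filter on low values only through the fluids in which they were high. The same limit holds for 8 of the 48 lower genes, for which the rich fluids averaged below 10. The median difference over all tested genes was -0.01 on the log2 scale. Beside these counts, 1226 genes differed by at least 2-fold upwards and 1028 downwards when overlap between the groups was disregarded.

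Among counted genes averaging 50 or more on the higher side, the 8 largest differences were those of HTRA3, C1QTNF5, NID1, CREB3L1, IGFBP2, GAS1, MARCO and CDH11. Of these genes only MARCO, described with the macrophage markers, averaged 10 or more in the poor fluids. HTRA3, a secreted serine protease, stood at 180, 337, 211, 38.8 and 283 in the rich fluids and at 11.3, 0, 0, 0 and 4.84 in the poor ones, a difference of 6.19 on the log2 scale (SE 0.95). CREB3L1, a membrane-bound transcription factor of collagen-secreting cells, stood at 257, 151, 210, 33.7 and 25.3 against 0, 8.34, 3.84, 0 and 0 (5.46, SE 0.97). Both genes were at or near 0 in the poor fluids, and ORC_202 held no read of either. C1QTNF5, a secreted C1q-like protein whose gene shares a transcript with MFRP in mammals, so that reads of the pair may not be separable, differed by 5.91 (SE 0.79). NID1, which links laminin to collagen IV in basement membranes, differed by 5.78 (SE 0.91). IGFBP2, a binding protein of insulin-like growth factors, differed by 5.32 (SE 0.58) and was present in every poor fluid, from 1.53 to 9.69, against 63.9 to 326 in the rich ones. GAS1, a growth-arrest protein and hedgehog co-receptor, stood at 111 to 436 against 0.806 to 9.97, and CDH11, the cadherin by which synovial fibroblasts adhere to each other, at 30.6 to 123 against 0 to 3.84. These are low counts on the poor side, where a few reads move the log2 difference.

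Of the 19 synovial fibroblast markers, 11 were counted as higher and none as lower, and 18 had a positive difference, with a median of 4.06. For 4 of the 19 the poor fluids averaged below 10, and among the other 15 there were 9 counted. The marker genes did not enter the score, but they were measured in the same RNA. As these are bulk samples, fewer fibroblasts and less RNA per fibroblast cannot be told apart. COL1A1, on chromosome 11 at 25988357 to 26004604 of EquCab3.0 and encoding the main chain of type I collagen, stood at 54615, 19963, 8194, 9677 and 8198 in the rich fluids and at 899, 831, 229, 339 and 600 in the poor ones (4.85, SE 0.65). The lowest rich fluid was over the highest poor one, and ORC_202 lay between at 2768. LOXL1, a lysyl oxidase that cross-links collagen and elastin, stood at 1212, 750, 291, 214 and 471 against 41.3, 17.6, 11.5, 6.79 and 16.9 (4.85, SE 0.60). Stromal RNA was low but present in the poor fluids. The 19 markers summed to between 887 and 3747 normalized counts there, against 21724 to 131760 in the rich fluids and 8478 in ORC_202.

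All 18 tested collagens had a positive difference, 12 were counted as higher, and the median was 3.82. Among the 16 that averaged 10 or more in the poor fluids, 11 were counted. COL1A2, the partner chain of COL1A1, stood at 32251, 15319, 6701, 5943 and 5760 in the rich and at 995, 680, 185, 231 and 345 in the poor fluids (4.68, SE 0.67). COL5A2, a chain of the type V collagen that nucleates type I fibrils, stood at 2435, 914, 235, 409 and 522 against 51.8, 48.2, 12.3, 17.4 and 16.9 (4.65, SE 0.70). ORC_188 was the highest of the 10 for both chains. Of the 19 enzymes that modify collagen only 4 were counted as higher, with a median of 0.71. They were LOXL1, LOXL2, FKBP10 and PCOLCE. FKBP10, a prolyl isomerase for procollagen in the endoplasmic reticulum, stood at 676, 638, 962, 242 and 647 against 79.3, 164, 51.4, 95.0 and 24.2 (3.05, SE 0.56).

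Among matrix glycoproteins 12 of 24 were counted as higher and none as lower, with a median of 3.13 (9 of the 19 that averaged 10 or more in the poor fluids). FBN1, the fibrillin of elastic microfibrils, stood at 6323, 1479, 222, 361 and 343 in the rich and at 145, 79.7, 22.2, 25.2 and 19.3 in the poor fluids (4.15, SE 1.05). ORC_188 alone held most of the FBN1 of the rich group. LAMA4, a laminin chain of vessel and mesenchymal basement membranes, stood at 628, 561, 245, 79.4 and 156 against 51.0, 58.4, 11.5, 0 and 4.84 (4.44, SE 1.22).

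Proteoglycans and hyaluronan enzymes gave 6 of 19 higher, with a median of 2.50 (4 of the 14 that averaged 10 or more in the poor fluids). LUM (lumican, a small proteoglycan that regulates collagen fibrils) stood at 1869, 718, 268, 357 and 394 against 54.2, 36.1, 10.7, 33.9 and 4.84 (4.66, SE 0.78). DCN (decorin), a relative of lumican, stood at 3478, 3782, 2248, 1048 and 1153 against 718, 296, 55.2, 176 and 70.9 (3.57, SE 0.78). FMOD (fibromodulin) ranged from 33.9 to 282 in the rich and from 0 to 24.3 in the poor fluids. HAS1, a hyaluronan synthase, ranged from 136 to 2531 against 26.2 to 97.1 (3.05, SE 0.83), with ORC_205 the highest. HAS1 was also the only counted gene among the 6 tested markers of lining fibroblasts, all of which had a positive difference, with a median of 1.21.

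**Figure D2:**
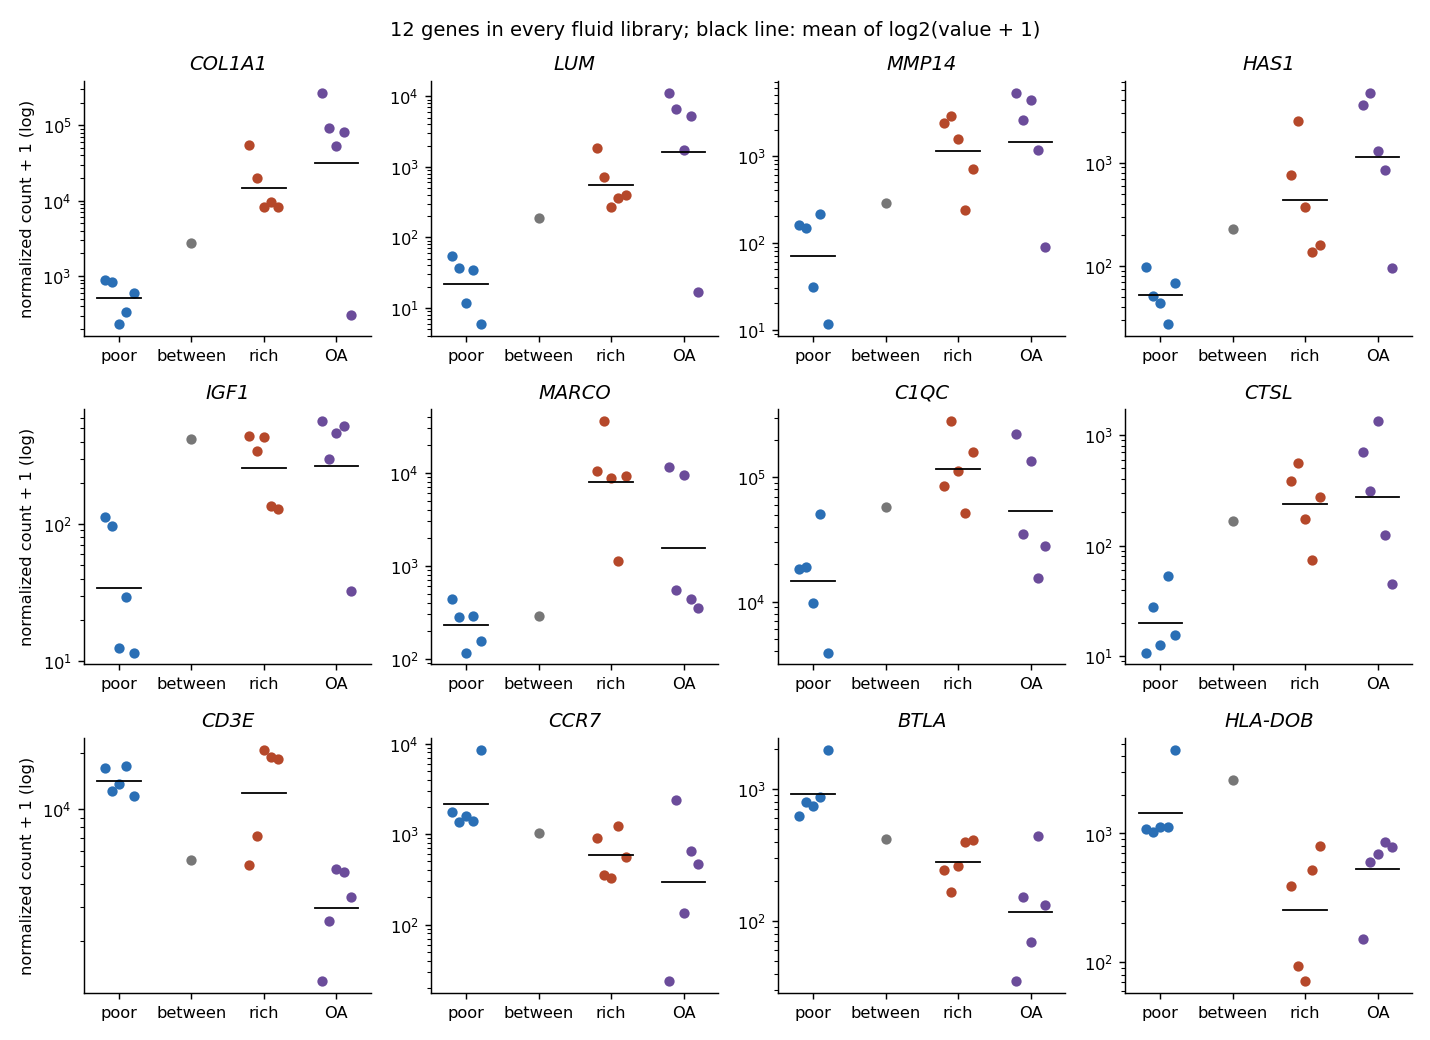
Normalized counts (value + 1, log axes) of 12 named genes in the 16 fluids, 1 point per library, grouped as stroma-poor, between, stroma-rich and OA, with a black line at the mean of log2(value + 1). COL1A1 lies between 8194 and 54615 in the rich fluids and between 229 and 899 in the poor ones.

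Of 15 tested matrix proteases 7 were counted as higher and none as lower, with a median of 2.44. Among the 12 that averaged 10 or more in the poor fluids, 5 were counted. MMP1, the interstitial collagenase, was not counted and had a negative difference of -2.53. MMP14, the membrane-anchored collagenase, stood at 2368, 2830, 1575, 236 and 705 in the rich and at 159, 147, 29.9, 212 and 10.5 in the poor fluids (3.98, SE 1.05). Its groups barely separated, since ORC_201 held 236 and ORC_208 held 212. ADAMTS1, an aggrecanase, ran from 16.4 to 607 against 0 to 15.4 (4.23, SE 1.16), and overlapped when the libraries were scaled to equal totals, with a difference of 4.16. Among 10 inhibitors of proteases all had a positive difference, but only SERPINF1 and A2M were counted. SERPINF1 (pigment epithelium-derived factor) ranged from 270 to 1704 against 29.8 to 197.4 (3.08, SE 0.70), and A2M (alpha-2-macroglobulin) from 35.1 to 75.1 against 2.42 to 31.0 (1.71, SE 0.60).

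Among growth factors, their binding proteins and receptors, all 16 tested genes had a positive difference and 8 were counted as higher, with a median of 2.27 (6 of the 12 that averaged 10 or more in the poor fluids). EGFR, the receptor of epidermal growth factor, stood at 110, 151, 60.1, 28.5 and 11.5 in the rich and at 8.09, 0, 2.30, 0 and 0 in the poor fluids (4.72, SE 0.92). IGF1, insulin-like growth factor 1, stood at 440, 341, 431, 135 and 128 against 112, 95.4, 11.5, 28.1 and 10.5 (2.92, SE 0.81). With equal totals its groups overlapped, with a difference of 2.84. Of the EGFR ligands only BTC (betacellulin) was counted, at 12.7 to 270 against 0 to 8.34 (3.93, SE 0.96), and its poor mean was below 10. Wnt signalling gave 1 of 12, with 10 positive and 2 negative differences and a median of 2.01. The mean of that list ran from 4.28 to 6.57 against 3.26 to 3.91, and for 5 of the 12 the poor fluids averaged below 10. The counted gene was DKK3, a secreted dickkopf-family protein, at 137 to 613 against 5.37 to 121 (3.28, SE 0.80). The groups of DKK3 also overlapped with equal totals, with a difference of 3.19. In TGF-beta and BMP signalling none of 18 genes was counted and the median was 0.25. TGFB1 itself stood at 10590 ± 1632 in the rich and 10092 ± 1195 in the poor fluids (SD, n = 5 each). Caveolar, focal adhesion and actin genes gave 2 of 17 with a median of 1.61. They were CAV1, the coat protein of caveolae, at 284 to 1691 against 17.6 to 65.8 (4.08, SE 0.58), and FLNC, a filamin that cross-links actin, at 82.0 to 423 against 0 to 21.8 (4.77, SE 0.93).

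Most markers of other cells that joint tissue or a needle could contribute were not counted, where 1.82% of all tested genes were counted as higher. The endothelial, chondrocyte and keratinocyte lists stood above that share, with 1 of 11, 2 of 9 and 1 of 3. The other lists are short, so none counted in them says little. None of the 7 tested pericyte and smooth muscle markers was counted, although LMOD1 and DES had differences of 3.69 and 3.42 with overlapping groups. ACTA2, smooth muscle actin, stood at 729 ± 248 against 941 ± 561 (SD, n = 5 each). None of 2 skeletal muscle, 1 adipocyte and 2 Schwann cell genes was counted. Endothelium gave 1 of 11, with a median of -0.30 that turned to 0.47 without ORC_205. ERG, VWF and EMCN had differences of 2.87, 2.73 and 2.10 with overlapping groups. The counted gene was CDH5 (VE-cadherin, the junction protein of endothelial cells), at 109, 1993, 324, 105 and 107 against 0, 58.4, 15.3, 68.8 and 4.03 (4.24, SE 1.41), with ORC_205 holding most of it. Of 9 tested chondrocyte markers 2 were counted, both with a poor mean below 10, and none of the 5 that averaged 10 or more in the poor fluids was. The mean of the list, which takes in the 4 with a poor mean below 10, still separated the groups, at 5.19 to 5.74 against 3.63 to 4.26. Of the 9 markers 6 had a positive difference and 3 a negative one, with a median of 0.98. The negative ones were COL2A1 (-0.74), CILP (-1.04) and CHAD (-1.28). SOX9, the chondrogenic transcription factor, stood at 60.2, 10.3, 42.6, 21.6 and 58.8 against 0, 0, 4.60, 0 and 0 (4.56, SE 0.68). HAPLN1, the link protein that joins aggrecan to hyaluronan, stood at 7.53, 139, 25.1, 2.59 and 13.8 and was at 0 in every poor fluid, which is at least 14.7-fold higher in the rich fluids against a floor of 3 reads per library. Without ORC_205 this bound falls to 4.78-fold, and ORC_201 held only 3 reads. Among 3 tested keratinocyte markers PKP1, a desmosomal plakophilin, was counted, at 105 to 382 against 6.45 to 37.2 (3.80, SE 0.53), and the mean of the 3 ran from 7.08 to 7.91 against 5.79 to 6.42.

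Of 13 tested markers of resident macrophages, MARCO, C1QC and C1QB were counted as higher. All 13 had a positive difference, with a median of 1.88, but the other 10 overlapped between the groups, among them MRC1 (0.42) and VSIG4 (0.72). MARCO, a scavenger receptor, stood at 10519, 35871, 8680, 1121 and 9119 in the rich fluids and at 437, 278, 115, 289 and 155 in the poor ones (5.13, SE 0.87). ORC_202 fell within the poor range at 288. C1QC, a chain of the complement initiator C1q that macrophages secrete, stood at 85549, 283060, 112629, 51946 and 159119 against 18281, 19077, 9759, 50359 and 3880 (3.01, SE 0.74). C1QB followed it, at 30053 to 135817 against 2414 to 28687 (2.69, SE 0.69). For both chains the lowest rich fluid, ORC_201, barely exceeded the highest poor one, ORC_208. The mean of the list ran from 11.15 to 13.76 in the rich and from 8.77 to 11.06 in the poor fluids, and was 12.23 in ORC_202. How far macrophage and stromal genes vary apart from each other was not tested.

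Monocyte markers as a list did not share this pattern. Of 9 tested genes 4 had a positive difference, 1 of them counted as higher, and 5 a negative one. Their median was -0.31 and turned to 0.008 without ORC_196. The mean of the list ran from 10.39 to 11.77 in the rich and from 10.32 to 11.33 in the poor fluids. Lipid handling and lysosomal genes had a positive difference in 19 of 20, with a median of 1.13, and CTSL (cathepsin L, a lysosomal protease) was the only counted member, at 72.5 to 560 against 9.71 to 52.3 (3.58, SE 0.66). Among 10 complement genes beyond C1q none was counted, with a median of 1.34. SDC1 (syndecan-1, a surface proteoglycan of plasma cells and epithelia) was counted at 413 to 1598 against 36.3 to 294 (2.67, SE 0.67), while the other 8 plasma cell markers were not.

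**Figure D3:**
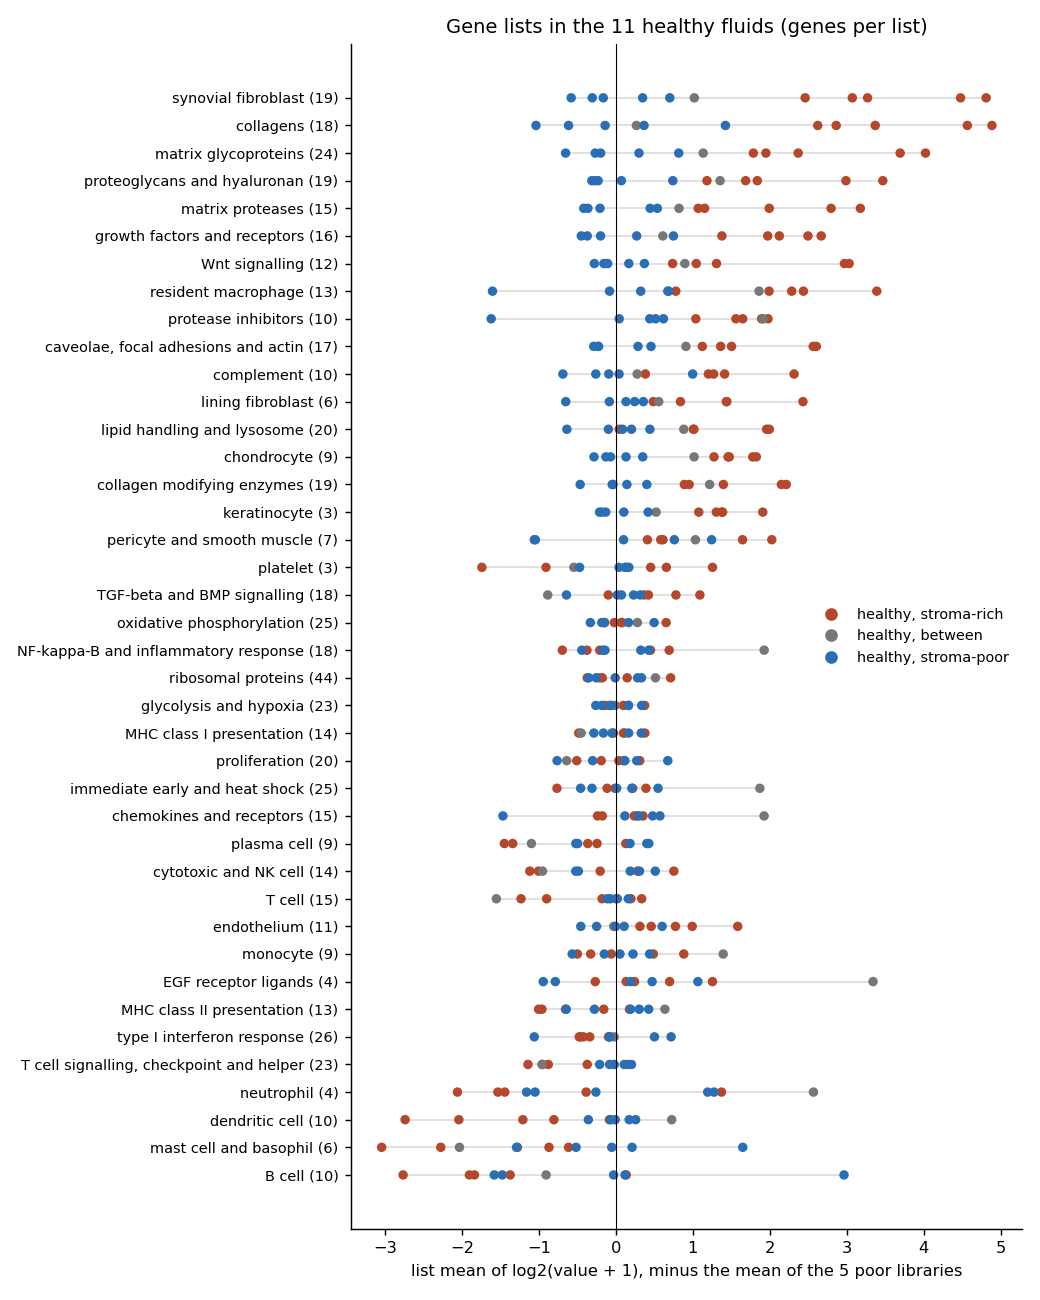
Mean log2(value + 1) of each gene list with at least 3 tested genes in the 11 healthy fluids, minus the mean of the 5 poor fluids, 1 point per library. Fibroblast, collagen and matrix lists separate the groups, and ORC_202 exceeds all 10 other libraries in immediate early, NF-kappa-B, chemokine and EGF receptor ligand genes.

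The 48 genes lower in the stroma-rich fluids were fewer and differed less. CCR4, a chemokine receptor of helper and regulatory T cells, stood at 105, 32.2, 44.8, 177 and 103 in the rich and at 573, 259, 614, 427 and 742 in the poor fluids (-2.65, SE 0.51). BTLA, an inhibitory receptor of B and T cells, stood at 244, 164, 262, 398 and 407 against 623, 800, 740, 863 and 1991 (-1.70, SE 0.38). CCR7, the homing receptor of naive lymphocytes and migrating dendritic cells, stood at 910, 356, 324, 1225 and 562 against 1762, 1343, 1567, 1406 and 8579 (-1.85, SE 0.63). ORC_196 held the most of all 3, and for CCR7 it held several times as much as any other poor fluid.

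HLA-DOB, a chain of the HLA-DO molecule that modulates peptide loading of MHC class II, stood at 389, 91.9, 70.0, 517 and 795 against 1090, 1021, 1121, 1128 and 4487 (-2.51, SE 0.81). CLEC17A, a C-type lectin of B cells, stood at 30.1, 0, 0, 52.7 and 59.9 against 91.4, 195, 83.6, 95.0 and 771 (-4.02, SE 1.49). CMA1, the mast cell chymase, stood at 6.69, 0, 0, 8.63 and 0 against 25.1, 9.26, 23.8, 22.3 and 299 (-3.85, SE 1.12). Its rich fluids averaged 3.07, below 10, with 18 reads in all, so a few reads move its difference. ORC_196 was again the highest library for HLA-DOB, CLEC17A and CMA1. Its B cell list mean was 11.64, against 7.10 to 8.80 in the other poor and 5.91 to 8.81 in the rich fluids, and the part of B cells in the lower genes was not tested. Without ORC_196 the differences were smaller, at -1.35 for CCR7, -2.10 for HLA-DOB and -3.07 for CMA1.

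The other genes among the largest decreases were less specific to lymphoid cells. TIFAB, an inhibitor of the TIFA adaptor of innate immune signalling, ranged from 0 to 50.1 in the rich and from 50.8 to 277 in the poor fluids (-3.24, SE 1.14). TBC1D16, a Rab GTPase-activating protein, ranged from 0 to 29.4 against 34.9 to 180 (-3.13, SE 0.90). NAGS, the N-acetylglutamate synthase of the urea cycle, ranged from 0 to 61.3 against 85.2 to 165 (-2.49, SE 1.13). MYOM3, a myomesin, stood at 16.7, 0, 140, 148 and 82.9 against 243, 148, 164, 232 and 276 (-2.72, SE 1.37). ORC_188 and ORC_205 carried the MYOM3 difference: without both it was -0.78 and no longer counted.

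Lists of lymphocytes and dendritic cells did not separate the groups. Of all tested genes 0.354% were counted as lower, so none counted in a list of this length says little. The dendritic cell and T cell signalling lists stood above that share, by 1 gene each. All 10 dendritic cell markers had a negative difference, with a median of -1.10, and CCR7 was counted. All 6 tested mast cell and basophil markers were also negative, with a median of -1.16 and none counted, as were 14 of 15 T cell markers, with a median of -0.25 that turned to 0.02 without ORC_188 and none counted. CD3E, a chain of the T cell receptor complex, stood at 5016, 7211, 20766, 19051 and 18586 in the rich and at 16509, 12531, 13647, 16881 and 11756 in the poor fluids. The 2 rich fluids of highest score thus held the least CD3E, while the other 3 held more than any poor fluid. LCK, the kinase of that receptor, showed ORC_188 (5390) and ORC_205 (6620) below all others in these groups too. T cell signalling and checkpoint genes gave 1 of 23, BTLA, with a median of -0.45. Cytotoxic and NK cell genes gave none of 14, with a median of -0.24 that was 0.02 without ORC_188. B cell genes gave none of 10, with a median of -1.57 that was -0.81 without ORC_196. CTSW (cathepsin W of cytotoxic cells) ranged from 10263 to 47778 in the rich and from 10733 to 32243 in the poor fluids. MS4A1 (CD20) ranged from 94.2 to 1218 against 301 to 8260.

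Inflammatory and housekeeping lists held almost no counted gene, where 1.82% of all tested genes were counted as higher and 0.354% as lower. At those shares a list of this size would hold few or none, so none counted says little about it. None of 18 NF-kappa-B, 26 type I interferon, 14 MHC class I, 25 immediate early and heat shock, 23 glycolysis and hypoxia, 25 oxidative phosphorylation, 44 ribosomal protein or 20 proliferation genes was counted. The medians of these lists lay between -0.41 for interferon and 0.15 for oxidative phosphorylation. MHC class II gave 1 of 13, HLA-DOB, and the chemokine list 1 of 15, CCR7, both counted as lower. Each list stood above the share of lower genes, by 1 gene. None of 4 neutrophil markers was counted. CSF3R, the receptor of granulocyte colony-stimulating factor, stood at 8008, 649, 601, 167 and 196.99 in the rich and at 3833, 685, 3936, 191.9 and 37243 in the poor fluids. It varied widely within each group.

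**Figure D4:**
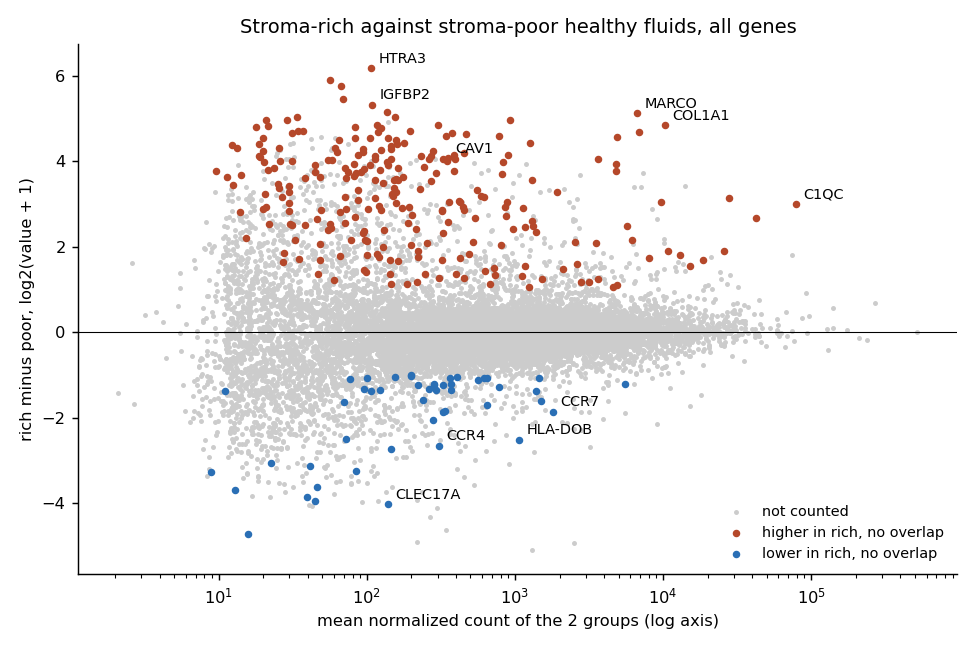
Each tested gene by the mean normalized count of the rich and poor fluids (log axis) and its log2 difference of rich minus poor fluids, with the 247 higher and 48 lower genes coloured. HTRA3 at 6.19 and CLEC17A at -4.02 are the extremes among the counted genes averaging at least 50 in the higher group.

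The fluid between the groups was not an average of them. Among the 247 higher genes ORC_202 lay within or above the rich range in 106, within or below the poor range in 106 and between the groups in 35. Among the 48 lower genes it lay within or above the poor range in 30, within or below the rich range in 14 and between in 4. Its fibroblast list mean of 5.47 was near the poor range of 3.87 to 5.15, whereas its protease inhibitor mean of 10.21 fell in the rich range of 9.34 to 10.28. ORC_202 had the highest list means of the 11 fluids for immediate early and heat shock genes (13.42, against 10.79 to 12.10 in the rest), NF-kappa-B genes (12.15, against 9.53 to 10.91) and neutrophil markers (10.43, against 5.81 to 9.24). FOS, an immediate early transcription factor, stood at 104469 there and at 9736 to 33910 in the other 10.

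The 2 highest-scoring fluids were often the highest in single genes. ORC_188 and ORC_205 were the 2 highest of the 11 in 129 of the 247 higher genes. Without both, 299 genes were higher and 195 lower among 13567, and 236 of the 247 and 39 of the 48 still differed at least 2-fold. Groups that do not overlap cannot begin to overlap, or turn direction, when libraries are removed, so these counts say only how many differences kept their size.

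The OA fluids, which did not enter the ordering of the healthy fluids, were ordered by the same score. Their scores were 16.32 in OA_2615, 15.70 in OA_3850, 14.86 in OA_9350, 14.56 in OA_1038 and 11.33 in OA_9570. OA_9570, the lowest, was compared with the mean of the other 4, with no test since 1 library stands on 1 side. The score chose OA_9570 from values of the same RNA, so this comparison is a description and is not independent of the score. Of the 247 genes higher in the rich healthy fluids, 228 were above OA_9570 in the other OA fluids and 83% by at least 2-fold, where 18.2% of all tested genes were. Their median difference was 4.68, against 0.03 over all genes. COL1A1 stood at 271266, 92966, 53894 and 80547 in the 4 OA fluids and at 302 in OA_9570, within the range of the stroma-poor healthy fluids. LOXL1 stood at 1067 to 4333 against 51.9.

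OA_9570 did not have low values of all 3 score genes. Its FN1 of 19963 and SPARC of 4077 fell in the range of the rich healthy fluids, and its COL6A3 of 210 lay near the poor ones. Macrophage genes were not in the order of the score in OA. MARCO stood at 11441, 545, 9485 and 436 in the 4 OA fluids and at 347 in OA_9570, and the median difference of the resident macrophage list was 0.58, against 5.70 for collagens. The genes lower in rich healthy fluids showed no common direction. Of the 48, 26 were below OA_9570 in the other OA fluids, 7 (14.6%) by at least 2-fold, where 12.2% of all tested genes were, and another 7 were at least 2-fold above. Of the 10 lower genes named here, 9 were below it, from -0.22 for BTLA to -2.34 for TBC1D16, and CCR4 was above it, by 1.51 on the log2 scale.

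**Figure D5:**
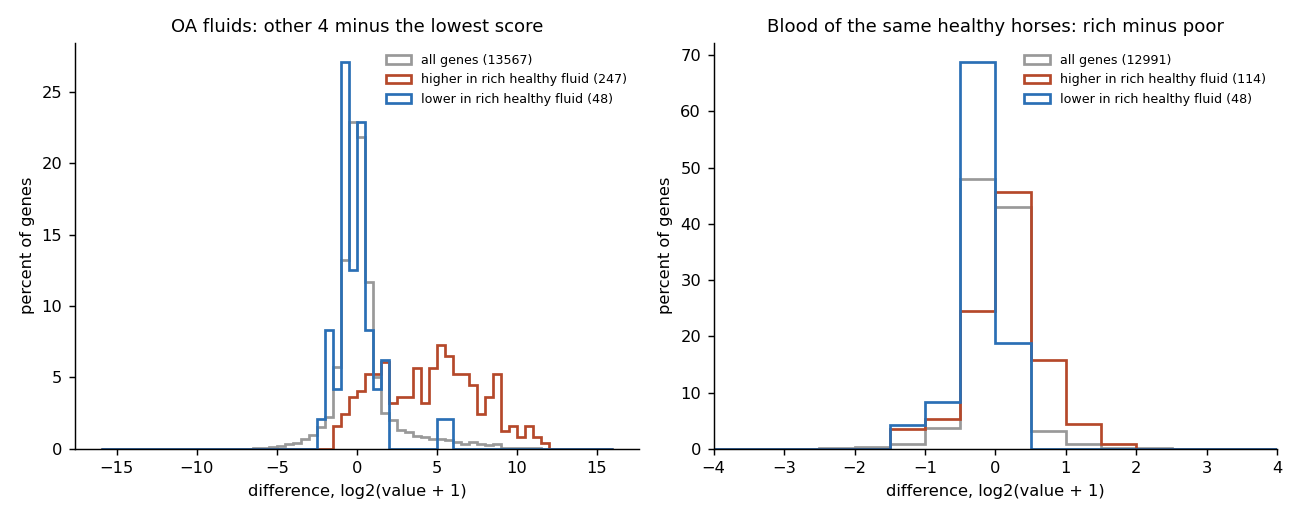
Differences on the log2 scale of the 247 higher and 48 lower genes of the healthy fluids in other libraries, each beside all tested genes. These libraries are the OA fluids (other 4 minus OA_9570, the lowest by the same score) and the PBMC of the same healthy horses (rich minus poor). The OA median of the higher genes is 4.68 and the PBMC median is 0.21.

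PBMC of the same horses tested whether the blood differed along with the fluid. PBMC of 3 horses with stroma-rich fluid (ORC_188, ORC_197 and ORC_205) were compared with those of 4 horses with stroma-poor fluid (ORC_192, ORC_200, ORC_208 and ORC_209). With limma, 0 of 12991 genes (0%) were higher and 0 (0%) lower at an adjusted p below 0.05, and 132 genes (1.02%) had an unadjusted p below 0.05. On recovered reads edgeR called 0 genes and DESeq2 0, with 134 and 199 at an unadjusted p below 0.05. If no gene differed, a share of about 0.05 would be expected below that p on average, so these shares were low. The limma share was 2.25% without ORC_197. With 3 horses against 4, 0 genes called does not show that the blood was alike. The genes of smallest p were MEGF11, an EGF-like repeat protein, with a log2 difference of -1.96 (SE 0.43, limma p = 0.00165, adjusted p = 1), and PDE1C, a cyclic nucleotide phosphodiesterase, with -1.75 (SE 0.45, limma p = 0.00442, adjusted p = 1). MEGF11 stood at 9.08 ± 3.70 (SD, n = 3) against 37.0 ± 6.27 (SD, n = 4) and was lower in each of the 3 blood samples of the rich horses than in each of the other 4.

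No score gene passed the test in blood. FN1 stood at 49.8, 3660 and 3395 in the blood of ORC_188, ORC_197 and ORC_205, and at 942, 699, 34.4 and 195.9 in that of ORC_192, ORC_200, ORC_208 and ORC_209 (1.72, SE 1.67, limma p = 0.334, adjusted p = 1). The horse with the most FN1 in fluid was among those with the least in blood. SPARC differed by -0.75 (SE 0.82, limma p = 0.388, adjusted p = 1), and COL6A3 was at 0 in all 7 blood libraries. Of the 247 genes higher in rich fluids, 114 were abundant enough to be tested in blood. There 76 had a positive difference and 38 a negative one, with a median of 0.21. Of the 48 lower genes all 48 were tested, 39 with a negative difference, and their median was -0.24. The median of all 12991 genes tested in blood was -0.01. Unadjusted limma p-values below 0.05 were reached by 3 of the 114 and 4 of the 48, where 1.02% of all tested genes had one. None was called. Whether the blood leaned the same way as the fluid was not tested. Fluid and blood were normalized in separate tables, so their levels are not compared.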

How the data were processed

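The authors deposited, per tissue, a signal per gene: read counts scaled by median-ratio size factors. They were read so because in each library 99.85% to 99.98% of values came out as whole reads, within 0.1 of a read. Partek, cutadapt, STAR 2.7.3, HTSeq and DESeq, with the build EquCab3.0, are named in the submitters' processing notes; nothing on settings or strand is given in the sources used here. Coordinates are those of the blood table, and genes without them there have none here. No 2 libraries of a group were copies (smallest chi-square per gene 101 in fluid and 31.6 in blood). Depth was taken from the recovered reads.

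Healthy fluids were scored and compared as described, on log2(value + 1), with SE from both groups' variances. This scale understates the change of low genes. PBMC were fitted with limma 3.58.1 (trend, robust) in R 4.3.3, two-sided, with Benjamini-Hochberg adjustment, on genes averaging at least 10. edgeR 4.0.16 (quasi-likelihood, TMM) and DESeq2 1.42.0 on recovered reads were alternatives. Steps were tested on simulated data.

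The members, the 44 gene lists and the tests were chosen with earlier results of these data known. Named genes were, the 8 largest differences in each direction among counted genes that have a symbol and average 50 or more on the higher side; from each list up to 3 counted genes of largest difference or, with none, the 2 of highest mean; and in PBMC the 2 of smallest p and the score genes. Other counted genes of a list are named without values, and 1 gene is not reported here singly, although counts and lists include it. The RefSeq table of gene names was not needed, and no sequence was used.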

Additional observations from a re-analysis of the deposited data

Results flagged for a closer look

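In 270 groups of 5 libraries (each gene or list named, in the rich or the poor fluids), 21 had a library that stood apart, with a gap to the nearest of the others beyond Dixon's critical value, as a share of the range of log2 values. Chance flags about 1 in 20 groups.

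Among the stroma-poor fluids ORC_196 stood apart most often. It was the highest for HLA-DOB (gap 0.932 of the range), CCR7 (0.854), TBC1D16 (0.771), CMA1 (0.724) and BTLA (0.720), all genes lower in the rich fluids. It was the lowest for ACTA2 (0.858), the chemokine list (0.777), the protease inhibitor list (0.743) and GAS1 (0.723). ORC_192 was the highest poor fluid for C1QTNF5 (1) and NID1 (0.784), ORC_200 for SOX9 (1) and ORC_209 for LOXL2 (0.763). For C1QTNF5 and SOX9 the other 4 poor fluids were at 0. The platelet list was lowest in ORC_208 (0.800).

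Among the stroma-rich fluids ORC_197 was the lowest for the erythroid list (0.822) and its 2 tested genes KLF1 (0.877) and EPB42 (0.754), with no read of either. ORC_188 was the highest for IFIT2, an interferon-induced gene (0.795), at 12433 normalized counts. ORC_198 was the highest for GAPDH (0.761) and the oxidative phosphorylation list (0.713), and ORC_205 for NFKBIA, the inhibitor of NF-kappa-B (0.719).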

How the results depend on the processing

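Against 247 higher and 48 lower genes, comparing the 4 highest with the 4 lowest fluids gave 441 and 138, and the 3 highest with the 3 lowest gave 1140 and 612, since fewer libraries separate more easily. Leaving out single fluids gave 260 to 570 higher and 55 to 157 lower genes: 570 higher without ORC_201 and 377 without ORC_209, and 157 lower without ORC_192, 132 without ORC_188, 105 without ORC_201, 104 without ORC_208 and 101 without ORC_198. Leaving out ORC_188 and ORC_205 together, an alternative chosen after seeing the data, gave 195 lower genes and 60.5% higher among the counted, against 83.7%. Scaling to equal totals moved the median of all genes by -0.10 to give 220 and 68, 76.4% of them higher. The remaining pseudocounts, filters and the other score gave 193 to 250 higher and 39 to 57 lower genes. Of the 48 genes named as counted, 44 stayed so under each of the 19 alternatives that tested them, but most of these could not undo a separation. Leaving out libraries, smaller groups, pseudocounts and filters cannot make separate groups overlap or reverse, so they tested at most the size of the differences. The other score gave the same groups and so tested nothing further. Only scaling to equal totals could make groups overlap. It kept 220 of the 247 higher and 46 of the 48 lower genes, and ADAMTS1, IGF1 and DKK3 were not kept. Medians of 12 of 44 lists changed sign without a single fluid, all of them 0.58 or less in size.

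In OA, the lower genes at least 2-fold below OA_9570 numbered 12 with the 2 highest against the 2 lowest fluids and, in alternatives added after seeing the data, 5 to 13 without single fluids (13 without OA_1038, 11 without OA_9350), against 7. The blood comparison called 0 genes under every alternative, including the slope on the score over 8 horses (smallest adjusted p = 0.478 by limma). SPARC in blood, not called, ranged from -1.43 to 0.38 as single horses were left out and was positive only without ORC_188. No paired analysis was possible because the rich and poor fluids, and their blood, come from different horses that share no number. Few horses, and few reads of many genes in the poor fluids, limit these comparisons; the shares of these limits were not tested.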
